A study of Mus musculus with 38 samples.

Results

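Chemokines are small secreted proteins that draw leukocytes towards the cells that make them, and 9 of them were followed through the bone-lining niche of myeloma-bearing mice: Cxcl1, Cxcl9, Cxcl10, Cxcl14, Cxcl16, Ccl2, Ccl7, Ccl19 and Cx3cl1. They were picked by name as inflammatory and interferon-induced chemokines, not by a threshold on these values, but with earlier results of these data known. All 9 were found among the 13260 genes of the expression table. The study asked how myeloma alters gene expression in cells that line bone, by RNA-Seq of pools of 100 sorted cells from C57Bl/KaLwRijHsd mice. At 8 to 10 weeks of age the mice received phosphate-buffered saline as vehicle (healthy) or 5TGM1-GFP cells, a mouse myeloma line carrying green fluorescent protein (myeloma-bearing), by the intravenous route, and they were culled on day 23. From the bone lining of both kinds of mice came endothelial cells, sorted as CD31+, stromal progenitors, sorted as Sca1+ALCAM-, and osteoprogenitors, sorted as ALCAM+Sca1-, and GFP+ myeloma cells were taken from the bone lining and the central marrow of myeloma-bearing mice. The niche cells were gated as negative for CD45, a marker of leukocytes, and for Ter119, a marker of red cells. There were 5 libraries in each group, except for 4 in each osteoprogenitor group, which made 38 libraries in 8 groups. The labels do not say which libraries came from separate mice, so a p value here measures the spread between these libraries, part of which may be technical.

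Chemokines act through receptors coupled to G proteins, and each family member reaches a different set of leukocytes. Cxcl1 acts on Cxcr2 and draws neutrophils, Ccl2 and Ccl7 act on Ccr2 and draw monocytes, and Cxcl9 and Cxcl10 act on Cxcr3 and draw activated T cells and natural killer cells. Interferons switch on Cxcl9 and Cxcl10, whereas NF-κB drives the rapid induction of Cxcl1, Ccl2 and Ccl7 by tumour necrosis factor or interleukin 1. Cxcl16 and Cx3cl1 are unusual in being made as membrane proteins, from which the proteases Adam10 and Adam17 release a soluble form.

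Promoters of the members that best represent the NF-κB and interferon classes are printed to show which of the elements through which those pathways are known to act their windows hold. Of the 9 members, 6 had a promoter in the RefSeq table for GRCm38.p6 (Cxcl1, Cxcl9, Cxcl10, Cxcl14, Ccl19 and Cx3cl1). The 250 bases before the annotated start are printed 5′ to 3′ on the strand of the gene, and capitals mark every match to an NF-κB element (GGGA and CC with 4 bases of any kind between them), to an interferon-stimulated response element core (GAAA and GAAA with 2 bases of any kind between them) or to a gamma-activated site (TTC and GAA with 3 bases of any kind between them) on either strand. The windows are chr5:90890995-90891244 on the plus strand for Cxcl1, and chr5:92328080-92328329 and chr5:92348890-92349139 on the minus strand for Cxcl9 and Cxcl10.
Cxcl1: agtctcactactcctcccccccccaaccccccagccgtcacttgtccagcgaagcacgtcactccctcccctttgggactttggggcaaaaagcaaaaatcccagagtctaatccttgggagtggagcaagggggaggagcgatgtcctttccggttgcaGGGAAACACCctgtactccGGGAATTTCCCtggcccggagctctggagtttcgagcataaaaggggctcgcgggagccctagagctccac
Cxcl9: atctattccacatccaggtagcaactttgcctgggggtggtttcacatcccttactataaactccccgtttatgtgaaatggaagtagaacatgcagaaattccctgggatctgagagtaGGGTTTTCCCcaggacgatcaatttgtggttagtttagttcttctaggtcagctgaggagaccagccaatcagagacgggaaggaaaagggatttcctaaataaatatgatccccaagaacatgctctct
Cxcl10: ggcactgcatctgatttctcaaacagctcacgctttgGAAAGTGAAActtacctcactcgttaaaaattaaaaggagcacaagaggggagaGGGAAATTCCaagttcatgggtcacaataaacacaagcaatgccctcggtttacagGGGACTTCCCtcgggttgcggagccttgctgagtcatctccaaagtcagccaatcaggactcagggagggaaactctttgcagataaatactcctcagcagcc
The Cxcl1 window held NF-κB matches at 90 to 81, 71 to 62 and 70 to 61 bases before the start, the last of which lies on the other strand and overlaps its neighbour. The Cxcl10 window held the interferon-stimulated core GAAAGTGAAA at 213 to 204 bases and NF-κB matches at 159 to 150 and 103 to 94 bases. Cxcl9 held an NF-κB match at 130 to 121 bases and none of the interferon letters in this window. In the windows not printed, Cxcl14 held an interferon-stimulated core and a gamma-activated site, Ccl19 held an interferon-stimulated core and an NF-κB match, and Cx3cl1 held none of these letters. Among all 32851 promoters of this length, 2.98% held the interferon-stimulated core, 7.02% the gamma-activated site and 17.6% the NF-κB letters. A match is a description of sequence, and binding was not measured.

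In the annotation of GRCm38, some members are chromosomal neighbours. Cxcl9 (chr5:92321347-92328079) and Cxcl10 (chr5:92346638-92348889) are neighbours on the minus strand with 18558 bases between them, and Cxcl1 (chr5:90891241-90893115) lies on the plus strand of the same chromosome. Ccl2 (chr11:82035571-82037453) and Ccl7 (chr11:82045712-82047525) lie on the plus strand with 8258 bases between them, and Cxcl16 (chr11:70453983-70459984) is on the minus strand of that chromosome. Cxcl14 is at chr13:56288643-56296551 and Ccl19 at chr4:42754525-42756577, both on the minus strand, and Cx3cl1 is at chr8:94772009-94782427 on the plus strand. The study states default parameters for the counting of reads and names no strand setting. Cxcl16 shares 18.3% of its exonic bases with Zmynd15 and Cxcl10 shares 5.91% with Art3, each on the opposite strand. Of the 50-base windows of Ccl19 transcripts, 52.0% also occur in transcripts of other genes, most of them in its near-identical copy Gm2564, so its level is uncertain. For Cxcl16 that share was 16.9%, for Cxcl10 3.59% and for Cxcl9 0.47%, and it was 0 for the other 5.

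Libraries held between 9735031 and 34883291 reads assigned to genes. Values are given in RPKM, reads scaled to the length of the gene and to the depth of the library, and a floor of 3 reads corresponded to between 0.0277 RPKM (Cx3cl1) and 0.37 RPKM (Ccl7) depending on the gene and library. Markers followed the sort: the summed endothelial markers were 2057 to 4384 RPKM in endothelial cells and at most 29.7 in the stromal progenitors and osteoprogenitors, and the osteoprogenitor markers were 6299 to 54992 RPKM in osteoprogenitors and at most 251.8 in the other niche cells. By its sum the stromal list did not separate stromal progenitors (957.9 to 3036 RPKM) from endothelial cells (2253 to 8771 RPKM). Ly6a, the gene of Sca1, had a mean of 4445 RPKM in healthy endothelial cells and 1365 RPKM in healthy stromal progenitors. In that order Pdgfra was 1.49 and 52.9, Prrx1 5.47 and 82.1, Pdgfrb 1.61 and 11.6, and Lepr 20.9 and 21.9 RPKM. A healthy and a myeloma-bearing stromal progenitor library stood apart by summed neutrophil markers of 7233 and 8061 RPKM. In such bulk pools, fewer cells that make a chemokine and less RNA per cell cannot be told apart.

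Cxcl1 was the most evenly present member, above 1 RPKM in all 28 niche libraries, and was near the floor in myeloma cells. In endothelial cells it was 22.5, 58.0, 62.5, 252 and 1008 RPKM in healthy mice and 4.85, 103, 291, 343 and 452 RPKM in myeloma-bearing mice. In stromal progenitors it was 52.5, 307, 595, 861 and 1325 RPKM in healthy and 108, 443, 646, 1770 and 1810 RPKM in myeloma-bearing mice. Values in osteoprogenitors were 104, 386, 409 and 725 RPKM in healthy and 44.4, 195, 230 and 576 RPKM in myeloma-bearing mice. Healthy and myeloma-bearing ranges overlapped in each of the 3 niche cell types, and the spread within a group exceeded 10-fold in 5 of the 6 niche groups. Myeloma cells held 0.0747 to 0.947 RPKM in the bone lining and 0 to 0.492 RPKM in the central marrow, below every niche library.

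**Figure D1:**
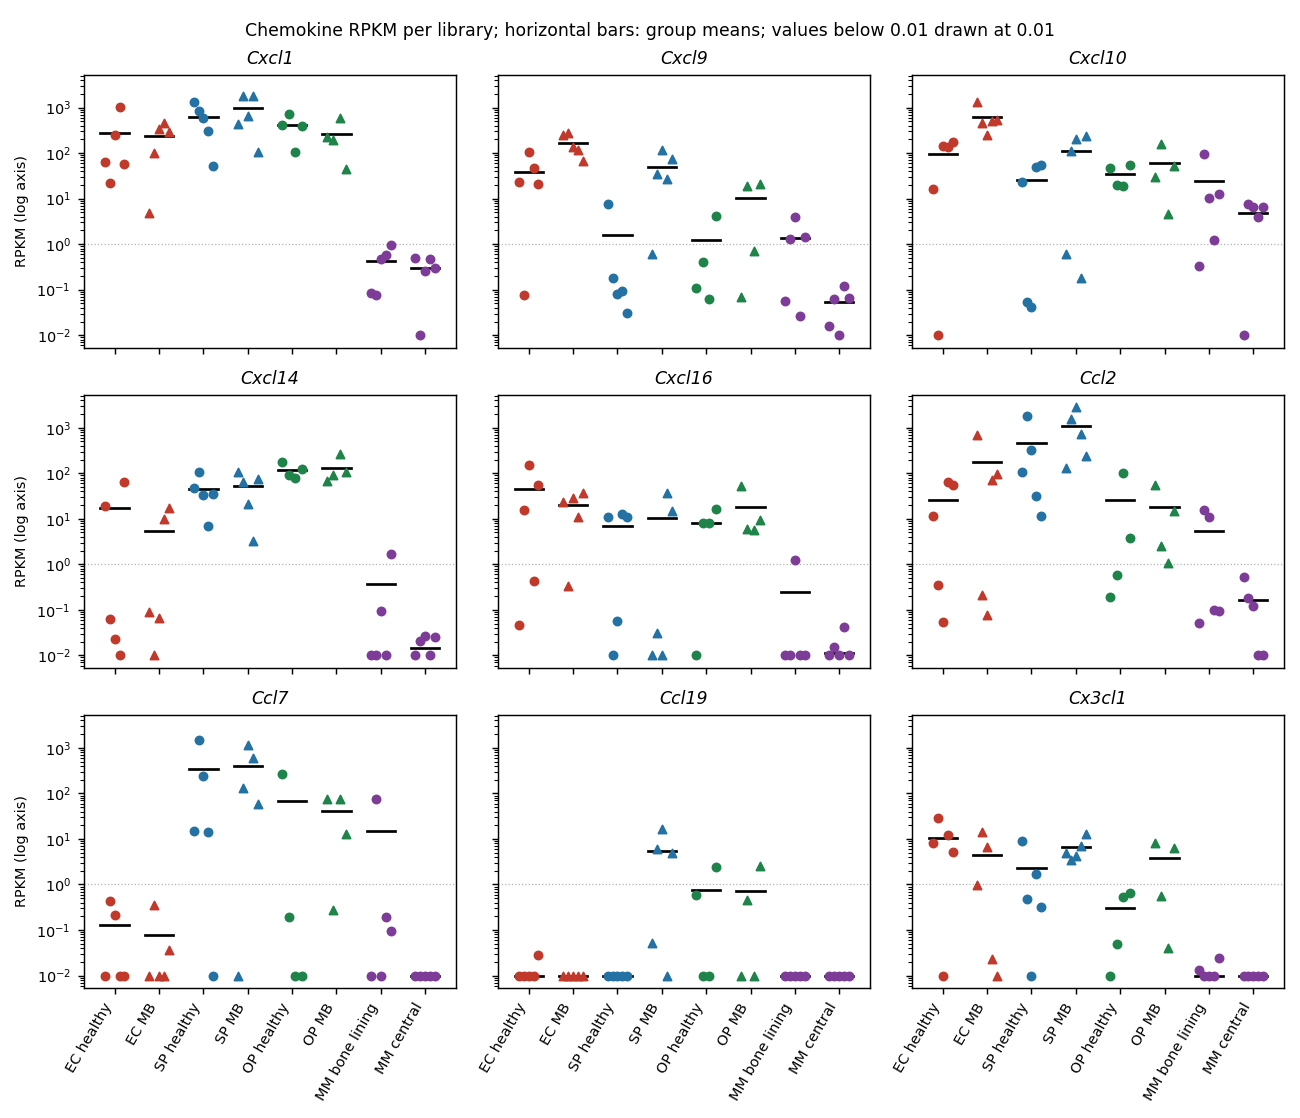
Level of each of the 9 chemokines in RPKM (log axis, values under 0.01 drawn at 0.01) in each of the 38 libraries, with endothelial cells in red, stromal progenitors in blue, osteoprogenitors in green and myeloma cells in purple. Circles are libraries of healthy mice or of myeloma cells, triangles are niche libraries of myeloma-bearing mice, bars are group means and the dotted line is 1 RPKM; Cxcl1 lies above the line in all 28 niche libraries and below it in all 10 myeloma cell libraries.

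Cxcl10 showed the clearest separation between healthy and myeloma-bearing mice, in endothelial cells. It was 0, 16.6, 133, 144 and 179 RPKM in healthy endothelial libraries (mean 94.5 ± 80.8, SD, n = 5) and 247, 465, 519, 536 and 1317 RPKM in those of myeloma-bearing mice (617 ± 408, SD, n = 5). Every library of myeloma-bearing mice exceeded every healthy library, which was so for 1 of the 7 members tested in endothelial cells and for 0.571% of all 7880 genes tested there. The difference was 3.88 on the log2(RPKM + 1) scale (SE 1.08), with an unadjusted p of 0.00194 but an adjusted p of 0.821 by limma across all genes, so it did not pass the threshold. Leaving out the healthy library with 0 reads of Cxcl10 (replicate L) lowered the difference to 2.59 (adjusted p = 0.484), the lowest value when any 1 library was left out.

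Cxcl9, which shares the receptor Cxcr3 with Cxcl10, had its highest levels in endothelial cells too. Its levels were 0.0784, 21.02, 23.3, 47.1 and 105 RPKM in healthy endothelial libraries (39.2 ± 40.2, SD, n = 5) and 66.1, 117, 138, 244 and 273 RPKM in those of myeloma-bearing mice (168 ± 87.6, SD, n = 5). The ranges overlapped only through the highest healthy and the lowest myeloma-bearing library. The difference was 2.92 on the log2(RPKM + 1) scale (SE 1.00, adjusted p = 0.867, limma). In stromal progenitors Cxcl9 was 0.0308, 0.0799, 0.0946, 0.181 and 7.70 RPKM in healthy and 0.604, 27.0, 35.4, 75.5 and 115 RPKM in myeloma-bearing mice. Thus 4 of the 5 libraries of myeloma-bearing mice exceeded every healthy library, with a difference of 4.03 (SE 1.15, unadjusted p = 0.00261, adjusted p = 0.811, limma). Cxcl9 exceeded 1 RPKM there in 4 of 5 libraries of myeloma-bearing mice and 1 of 5 healthy ones, so it passed the level filter through the former alone. In osteoprogenitors, where Cxcl9 did not reach the level filter, it was 0.0638, 0.108, 0.409 and 4.25 RPKM in healthy and 0.0679, 0.714, 19.1 and 20.7 RPKM in myeloma-bearing mice.

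Cxcl10 in the other niche cells overlapped between healthy and myeloma-bearing mice. Stromal progenitors held 0.0422, 0.0533, 23.8, 48.4 and 54.0 RPKM in healthy and 0.182, 0.599, 110, 202 and 236 RPKM in myeloma-bearing mice. The upper 3 libraries of myeloma-bearing mice stood above all healthy ones and the lower 2 were under 1 RPKM, and the difference of 1.42 (SE 1.59) had an adjusted p of 0.989. Osteoprogenitors held 19.0, 20.3, 45.9 and 53.7 RPKM in healthy and 4.69, 29.3, 52.9 and 161 RPKM in myeloma-bearing mice. Cxcl10 was the only member above 1 RPKM in most myeloma cell libraries of both sites, at 0.334, 1.21, 10.2, 12.5 and 95.8 RPKM in the bone lining and 0, 3.98, 6.41, 6.44 and 7.70 RPKM in the central marrow. It was the only member tested between those sites, and its difference of 0.84 (SE 0.93, adjusted p = 0.979, limma) was smaller than its SE. In that comparison 0.203% of the 8857 genes were called, and voom-limma on reads called none of the members either.

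Cxcl9 and Cxcl10 were detected together more in endothelial libraries than in the others, a difference given here by counts alone. Both were above 1 RPKM in 9 of 10 endothelial libraries, and the remaining library had neither. In stromal progenitors both were above 1 RPKM in 4 of 10 libraries, Cxcl9 alone in 1 and Cxcl10 alone in 2. In osteoprogenitors both were present in 3 of 8 libraries and Cxcl10 alone in the other 5. Cxcl10 was the highest of the 9 members in 4 of 5 endothelial libraries of myeloma-bearing mice, and in 1 of 5 of healthy mice, where Cxcl1 was highest in 3.

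**Figure D2:**
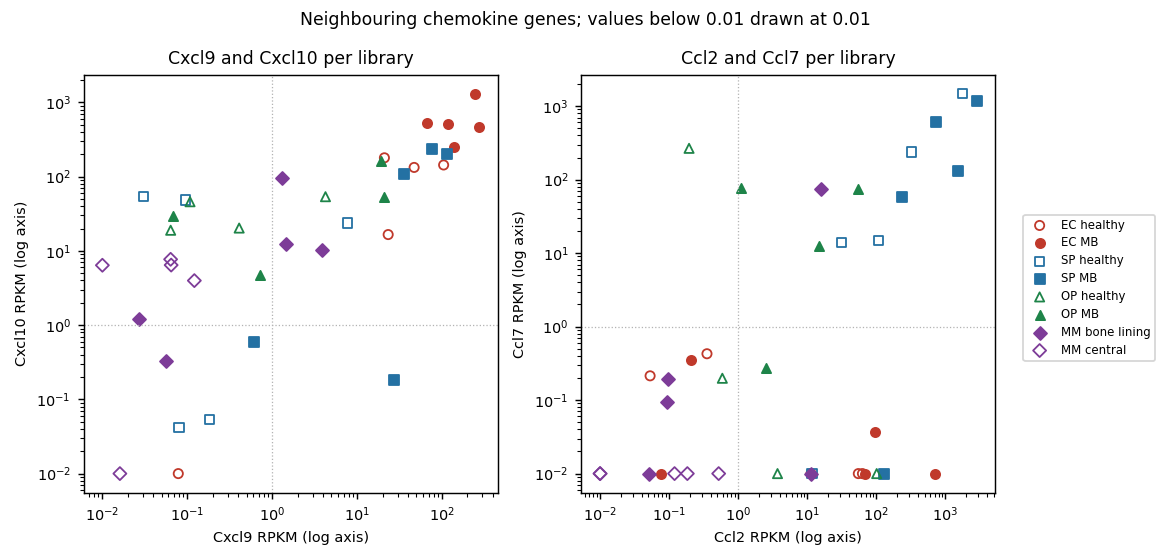
Level of Cxcl10 against Cxcl9 and of Ccl7 against Ccl2 in each library (RPKM, log axes, values under 0.01 drawn at 0.01), with circles for endothelial cells (EC), squares for stromal progenitors (SP), triangles for osteoprogenitors (OP) and diamonds for myeloma cells (MM). Filled symbols are niche libraries of myeloma-bearing mice (MB) or bone-lining myeloma cells, open symbols are healthy mice or central marrow, and dotted lines mark 1 RPKM. Cxcl9 and Cxcl10 were both above 1 RPKM in 9 of 10 endothelial libraries, whereas Ccl2 and Ccl7 were both above 1 RPKM in 8 of 10 stromal progenitor libraries and in 0 endothelial libraries.

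Macrophages can make these ligands, and although the gate for CD45-negative cells would remove them, their markers are given beside the ligands. Of 11 macrophage markers 7 were in the table, with sums of 12.5 to 221 RPKM in healthy endothelial libraries and 68.3 to 246 RPKM in those of myeloma-bearing mice. The healthy endothelial library with 0 reads of Cxcl10 had the highest sum of its group. In healthy endothelial libraries 5 of the 7 were at or below 1 RPKM throughout, and 4 of the 7 in myeloma-bearing ones. In stromal progenitors the sums were 5.87 to 161 RPKM in healthy and 28.1 to 256 RPKM in myeloma-bearing mice. Their part in the Cxcl9 and Cxcl10 results was not tested. The table held none of the 9 markers listed for T and natural killer cells, which were not analysed here.

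Ccl2, a monocyte-attracting ligand, had its highest levels in stromal progenitors. It was 11.7, 31.5, 108, 321 and 1788 RPKM in healthy (452 ± 757, SD, n = 5) and 130, 239, 736, 1536 and 2833 RPKM in myeloma-bearing mice (1095 ± 1119, SD, n = 5). The ranges overlapped, and the difference of 2.38 (SE 1.05) had an unadjusted p of 0.0366 and an adjusted p of 0.956 (limma). The healthy library with the highest Ccl2 was the neutrophil-rich one, while in the neutrophil-rich library of myeloma-bearing mice Ccl2 was 1536 RPKM, the next to highest of its group. The part of neutrophil transcripts in these levels was not tested. In endothelial cells Ccl2 was 0.0530, 0.353, 11.3, 54.9 and 63.0 RPKM in healthy and 0.0762, 0.207, 69.7, 96.8 and 701 RPKM in myeloma-bearing mice, so that each group held libraries near the floor beside others at 54.9 RPKM or more. Osteoprogenitors held 0.194, 0.589, 3.71 and 101 RPKM in healthy and 1.09, 2.56, 14.6 and 54.5 RPKM in myeloma-bearing mice.

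Ccl7, the neighbour of Ccl2 on the chromosome and another ligand of Ccr2, was present in progenitors and near the floor in endothelial cells. Stromal progenitors held 0, 14.1, 14.7, 237 and 1484 RPKM in healthy and 0, 58.5, 129, 610 and 1179 RPKM in myeloma-bearing mice. The difference of 1.21 (SE 1.78, adjusted p = 0.994) was smaller than its SE, and it fell to -0.11 when replicate O was left out. Osteoprogenitors held 0, 0, 0.198 and 266.5 RPKM in healthy and 0.272, 12.7, 73.7 and 76.2 RPKM in myeloma-bearing mice. There 3 of 4 libraries of myeloma-bearing mice and 1 of 4 healthy libraries exceeded 1 RPKM, but the healthy library at 266.5 RPKM was the highest of all 8, and the difference of 2.07 (SE 1.75) had an adjusted p of 0.981. None of the 10 endothelial libraries exceeded 0.427 RPKM.

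The spread of Ccl2 and Ccl7 among libraries of a group was wide. In healthy stromal progenitors the SD of log2(RPKM + 1) was 2.80 for Ccl2 and 4.06 for Ccl7, while the median SD of genes of like mean level was 0.63 and 0.83. In stromal progenitors of myeloma-bearing mice the SD was 1.84 for Ccl2 and 4.01 for Ccl7, beside medians of 0.46 and 0.85. Ccl2 was above Ccl7 in 10 of 10 stromal progenitor libraries. Of the 28 niche libraries, 11 held both genes above 1 RPKM, 11 held Ccl2 alone and 1 held Ccl7 alone.

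Ccl19, a homeostatic ligand of Ccr7 that guides T cells and dendritic cells, was the rarest member and exceeded 1 RPKM in 5 of 28 niche libraries. It was listed at 0 in all 5 healthy stromal progenitor libraries and was 0, 0.0508, 4.98, 6.05 and 16.15 RPKM in those of myeloma-bearing mice. Only 3 libraries exceeded 1 RPKM, so the gene did not pass the filter of 4 and was not tested in that comparison. A count model of all 38 libraries (voom-limma on recovered reads) called it higher (adjusted p = 0.0531), with a size that depends on the offset added to the 0 reads of the healthy group and is not given, beside 0.618% of 13260 genes called by that fit, and this was the only call of a member between healthy and myeloma-bearing mice in any fit run. Voom-limma on read counts is also the test that the study names. Osteoprogenitors held 0, 0, 0.598 and 2.42 RPKM in healthy and 0, 0, 0.453 and 2.49 RPKM in myeloma-bearing mice. Endothelial libraries held at most 0.0286 RPKM, and all 10 myeloma cell libraries were listed at 0. The shared transcript windows described above apply to each of these levels.

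Cxcl14, which many epithelial and stromal cells make constitutively, differed between cell types more than between healthy and myeloma-bearing mice. Osteoprogenitors held 78.3, 91.8, 123 and 178 RPKM in healthy and 67.8, 91.6, 105 and 261 RPKM in myeloma-bearing mice. Stromal progenitors held 7.09, 32.9, 35.5, 46.8 and 106 RPKM in healthy and 3.18, 20.8, 62.8, 75.1 and 106 RPKM in myeloma-bearing mice. Endothelial cells held 0, 0.0234, 0.0623, 19.3 and 65.8 RPKM in healthy and 0, 0.0672, 0.0879, 9.99 and 17.2 RPKM in myeloma-bearing mice. In endothelial cells 2 libraries of each group held 9.99 RPKM or more and the rest were near the floor. In myeloma cells Cxcl14 was at most 1.72 RPKM.

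Cxcl16 and Cx3cl1, the membrane-anchored members, had their highest mean levels in healthy endothelial cells. Cxcl16, which binds Cxcr6, was 0.0472, 0.423, 15.7, 55.9 and 148 RPKM in healthy endothelial libraries and 0.340, 10.9, 23.5, 28.0 and 36.2 RPKM in myeloma-bearing ones. In stromal progenitors it was 0, 0.0569, 11.1, 11.1 and 12.7 RPKM in healthy and 0, 0, 0.0315, 14.7 and 36.3 RPKM in myeloma-bearing mice. In osteoprogenitors it was 0, 8.15, 8.27 and 16.6 RPKM in healthy and 5.75, 5.88, 9.39 and 52.9 RPKM in myeloma-bearing mice, a difference of 1.03 (SE 1.07, adjusted p = 0.998). Ranges of healthy and myeloma-bearing mice overlapped in each cell type.

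Cx3cl1, or fractalkine, which binds Cx3cr1, passed the test between healthy and myeloma-bearing mice in neither endothelial cells nor stromal progenitors. It was 0, 5.19, 7.96, 12.5 and 28.2 RPKM in healthy endothelial libraries and 0.00922, 0.0237, 0.954, 6.64 and 14.3 RPKM in those of myeloma-bearing mice, a difference of -1.31 (SE 1.2, adjusted p = 0.970). In stromal progenitors it was 0, 0.328, 0.485, 1.68 and 9.004 RPKM in healthy and 3.47, 4.19, 5.00, 6.93 and 13.2 RPKM in myeloma-bearing mice, a difference of 1.64 (SE 0.88, adjusted p = 0.956). A single healthy library lay within the range of those of myeloma-bearing mice. Cx3cl1 exceeded 1 RPKM in 4 of 5 healthy and 2 of 5 myeloma-bearing endothelial libraries, and in 2 of 5 healthy and 5 of 5 myeloma-bearing stromal progenitor libraries. It thus passed the level filter in each cell type through the group where it is high, and nothing is read from the opposite signs. The difference between these changes was -2.95 (SE 1.37, unadjusted p = 0.0409, adjusted p = 0.928, limma interaction). In osteoprogenitors Cx3cl1 was 0, 0.0504, 0.530 and 0.657 RPKM in healthy and 0.0400, 0.553, 6.33 and 7.97 RPKM in myeloma-bearing mice, and it did not pass the level filter.

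Across all members, none was called between healthy and myeloma-bearing mice by limma on the libraries compared. Called means an adjusted p below 0.1 and a difference beyond 1 on the log2 scale in either direction. In endothelial cells 0 of 7 members tested were called beside 0% of 7880 genes, in stromal progenitors 0 of 8 beside 0% of 8747, and in osteoprogenitors 0 of 6 beside 0.0115% of 8664. With an unadjusted p below 0.05, 2 members were found in endothelial cells (Cxcl9 and Cxcl10), 2 in stromal progenitors (Cxcl9 and Ccl2) and 0 in osteoprogenitors. Voom-limma on the libraries compared called 0 members in each, as did limma on all 38 libraries. Voom-limma on all 38 libraries called Ccl19 in stromal progenitors and no member in endothelial cells or osteoprogenitors. Over all genes, an unadjusted p below 0.05 was found for 414, 437 and 422 in endothelial cells, stromal progenitors and osteoprogenitors. The number of genes called varied with the fit. In the same order, limma on all 38 libraries called 150, 28 and 24, and voom-limma on all 38 called 251, 82 and 28. Voom-limma on the libraries compared called 4, 0 and 0. The study tested by voom-limma on read counts under the same thresholds. Its gene counts for these cell types equal those of the voom-limma fit of all libraries. The main fit used here is a different test, so its counts do not replace those of the study. The median difference of the members was 0.20 in endothelial cells, 1.32 in stromal progenitors and 0.41 in osteoprogenitors, beside 0.07, 0.00 and -0.03 over all genes tested. Non-overlapping groups with every library of myeloma-bearing mice higher were found for 0 of 8 members in stromal progenitors (0.354% of all genes) and 0 of 6 in osteoprogenitors (1.34% of all genes).

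**Figure D3:**
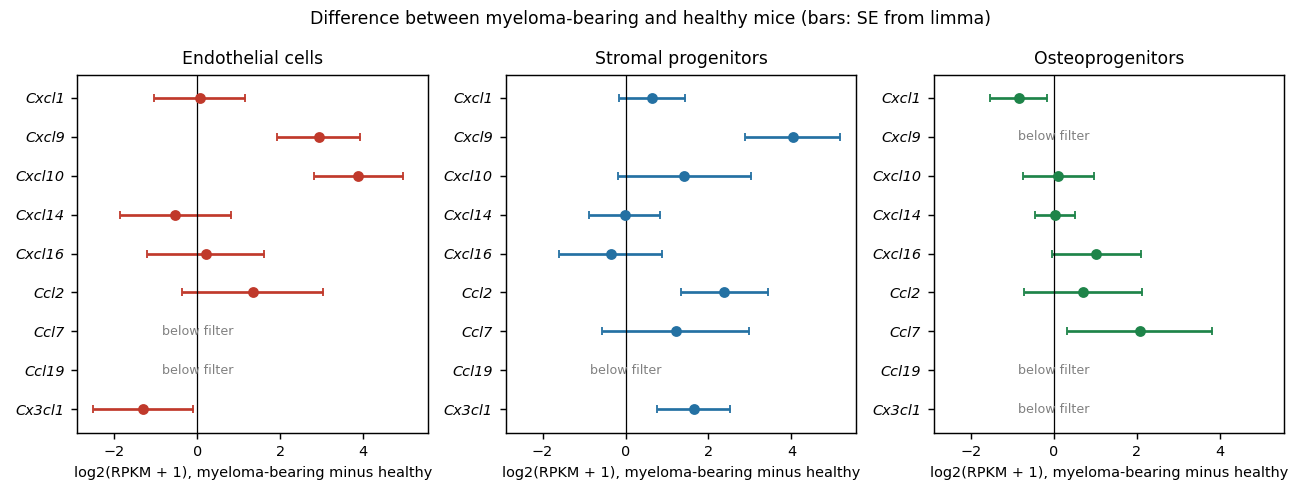
Difference between myeloma-bearing and healthy mice on the log2(RPKM + 1) scale for each member tested in endothelial cells, stromal progenitors and osteoprogenitors, with bars of 1 SE from limma. Cxcl10 in endothelial cells (3.88) and Cxcl9 in stromal progenitors (4.03) lie farthest from 0, and no member passed the adjusted test.

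The change with myeloma was also compared between cell types, and 0 members were called in any of these interactions. Of 8 members tested between endothelial cells and stromal progenitors, Cx3cl1 alone had an unadjusted p below 0.05. Of 8 tested between endothelial cells and osteoprogenitors, Cxcl10 alone had one, at a difference of changes of 3.76 (SE 1.67, unadjusted p = 0.035, adjusted p = 0.998). Of 9 tested between stromal progenitors and osteoprogenitors none had, and the highest value was 2.4 for Cxcl9 (SE 1.68). Over all genes 0% were called in each of these interactions, although 552, 516 and 437 genes had an unadjusted p below 0.05, in the order in which the interactions are given here. In that order, limma on all 38 libraries called 12, 22 and 16 genes, voom-limma on all 38 called 51, 15 and 16, and voom-limma on the libraries compared called 0, 4 and 0. None of these fits called a member.

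Between healthy cell types 3 members were called in at least 1 comparison: Cxcl9, Cxcl14 and Ccl7. In endothelial cells against stromal progenitors 2 of 8 members were called, beside 17.3% of 8457 genes. Cxcl9 was higher in endothelial cells (39.2 against 1.62 RPKM) by 3.57 (SE 1.19, adjusted p = 0.0628), and Ccl7 was lower (0.128 against 350.0 RPKM) by 5.11 (SE 1.54, adjusted p = 0.0399). Ccl2 at -3.73 (SE 1.45, adjusted p = 0.116) and Cxcl14 at -3.02 (SE 1.26, adjusted p = 0.15) had negative fitted values without passing. Both were called by limma on all 38 libraries (adjusted p = 0.0976 for Ccl2 and 0.0302 for Cxcl14) and without replicate O (0.0438 and 0.0686), Ccl2 also without N (0.0808), and Cxcl14 also by voom-limma on the libraries compared (0.0891) and on all 38 (0.0194). In the order named, those 5 fits called 19.5%, 14.8%, 14%, 16.8% and 21.8% of all genes. In this comparison Ccl2 exceeded 1 RPKM in 3 of 5 endothelial and 5 of 5 stromal progenitor libraries, and Cxcl14 in 2 of 5 and 5 of 5, so both passed the level filter through stromal progenitors and these calls are a description too. Ccl7 was above 1 RPKM in 0 of 5 endothelial and 4 of 5 stromal progenitor libraries, and Cxcl9 in 4 of 5 and 1 of 5, so each passed the level filter through the group where it is high and its difference is a description. Both calls were lost without replicate C, M or N, without the level filter and by voom-limma on the libraries compared, the Cxcl9 call also without O and the Ccl7 call also without L. Leaving out the neutrophil-rich libraries, chosen after seeing the data, ended both calls too: Cxcl9 then differed by 3.45 (SE 1.31, adjusted p = 0.126) and Ccl7 no longer passed the level filter. The median of all genes in this comparison was -0.21.

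Endothelial cells against osteoprogenitors also gave 2 calls, of 7 members tested, beside 16.5% of 8258 genes. Cxcl9 was higher in endothelial cells (39.2 against 1.21 RPKM) by 3.52 (SE 1.26, adjusted p = 0.0968). Cxcl14 was lower (17.0 against 118 RPKM) by 4.72 (SE 1.30, adjusted p = 0.0297). Cxcl9 exceeded 1 RPKM in 4 of 5 endothelial and 1 of 4 osteoprogenitor libraries, and Cxcl14 in 2 of 5 and 4 of 4, so here too each passed the level filter through the group where it is high and its difference is a description. The Cxcl9 call was lost without replicate C, M, N or O (below the level filter without O), and the Cxcl14 call without L, M or N. Cxcl1, above 1 RPKM in all 9 libraries, differed by -1.50 and was called without N (-2.83, SE 0.80, adjusted p = 0.065, beside 7.58% of all genes). The replicate letter as a block also ended the Cxcl9 call (3.44, adjusted p = 0.129), but that fit drops replicate C, which has no osteoprogenitor library, and leaving out C alone gave the same difference (adjusted p = 0.144). Cx3cl1 was 2.53 higher in endothelial cells (SE 0.94, adjusted p = 0.108), with 4 of 5 healthy endothelial libraries at 5.19 RPKM or more and all 4 osteoprogenitor libraries at 0.657 RPKM or less. It passed the level filter through endothelial cells alone and could only come out higher, and limma on all 38 libraries called it (adjusted p = 0.0228, beside 20.3% of all genes). The median of all genes was -0.22.

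Osteoprogenitors and stromal progenitors of healthy mice gave 0 calls among 6 members tested, beside 3.58% of 8707 genes, although 2 had an unadjusted p below 0.05. The difference of Ccl2 was -4.46 (SE 1.41, adjusted p = 0.145) and was called once replicate N was left out (-6.34, adjusted p = 0.049), beside 1.55% of 7483 genes called in that fit. It exceeded 1 RPKM in 2 of 4 osteoprogenitor and 5 of 5 stromal progenitor libraries, so it passed the level filter through the latter and the call is a description. Cxcl14 was 1.70 higher in osteoprogenitors (SE 0.63, adjusted p = 0.237). Voom-limma called 0 members here.

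**Figure D4:**
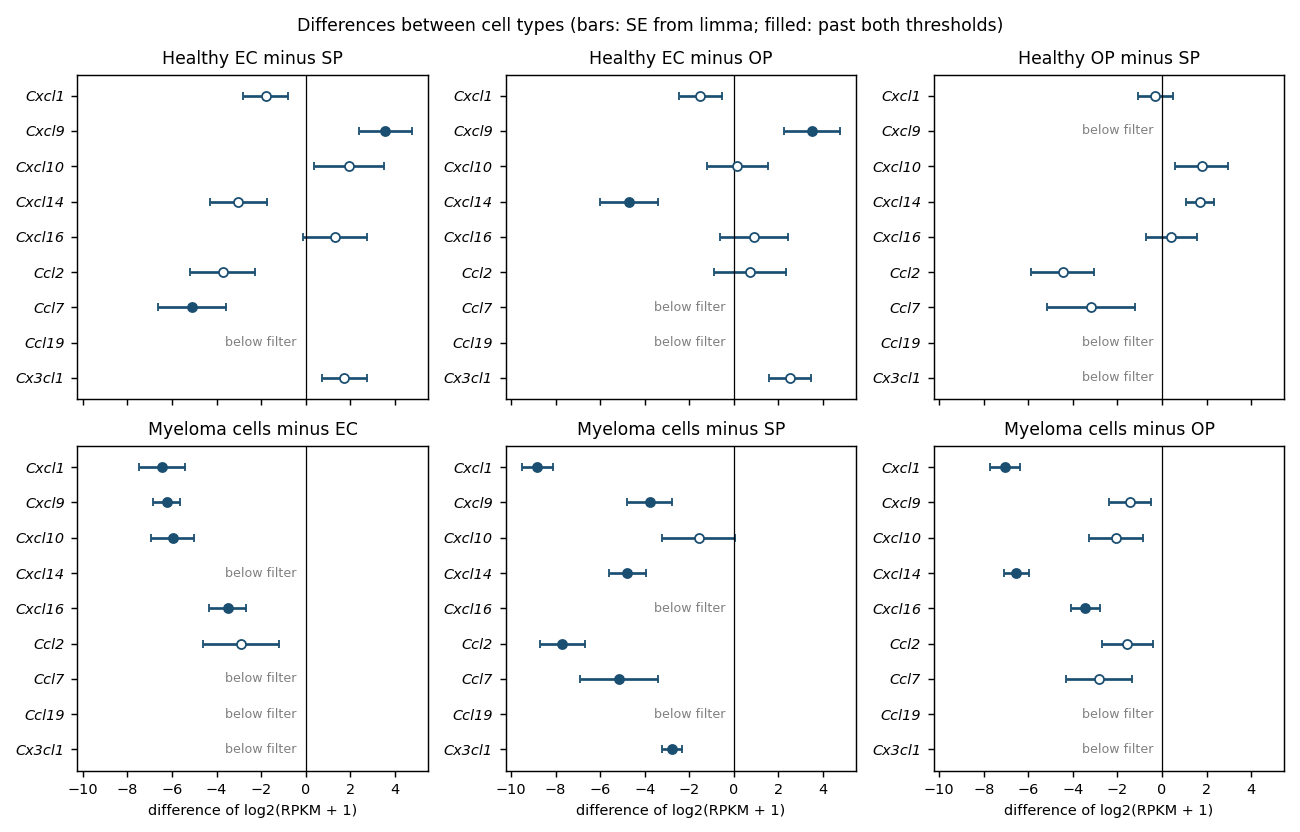
Log2(RPKM + 1) difference with its SE for each member tested in 3 comparisons between healthy niche cell types and in 3 comparisons of bone-lining myeloma cells with a niche cell type of myeloma-bearing mice. Filled points passed both thresholds: 2, 2 and 0 members between niche cell types, and 4, 6 and 3 members, each lower in myeloma cells.

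Myeloma cells of the bone lining were compared with each niche cell type of myeloma-bearing mice, and every member called was lower in them. In these myeloma cells Cxcl1 and Cx3cl1 exceeded 1 RPKM in 0 of 5 libraries, and Cxcl14, Cxcl16 and Ccl7 in 1 of 5. For each member called, 4 or more niche libraries exceeded 1 RPKM, which met the level filter without the myeloma cells, and of these members Cxcl10 alone exceeded 1 RPKM in as many as 4 myeloma libraries. The calls of the other members are therefore a description. Against endothelial cells of myeloma-bearing mice 4 of 5 members tested were lower, beside 41.5% of 9207 genes called in either direction. Cxcl1 differed by -6.46 (SE 1.02, adjusted p = 0.000335), Cxcl9 by -6.24 (SE 0.61, adjusted p = 6.17e-06), Cxcl10 by -5.98 (SE 0.98, adjusted p = 0.00043) and Cxcl16 by -3.51 (SE 0.84, adjusted p = 0.00583). Ccl2 did not pass, at -2.92 (SE 1.70, adjusted p = 0.209), but was called without replicate E (-4.59, adjusted p = 0.0728) or G (-4.52, adjusted p = 0.0849), beside 36% and 34.7% of all genes. The Cxcl16 call was lost without replicate G, where it fell below the level filter. The median of all genes was 0.49 higher in myeloma cells.

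Against stromal progenitors of myeloma-bearing mice 6 of 7 members were lower, beside 42.4% of 9460 genes called. Cxcl1 (-8.82, SE 0.70, adjusted p = 4.97e-07) and Ccl2 (-7.70, SE 1.01, adjusted p = 5.06e-05) had the lowest values. Ccl7 (-5.15), Cxcl14 (-4.78), Cxcl9 (-3.78) and Cx3cl1 (-2.78) had adjusted p values between 0.000299 and 0.0322. Cxcl10 did not pass, at -1.57 (SE 1.63, adjusted p = 0.496). For Cxcl10, 2 stromal progenitor libraries were under 1 RPKM and a myeloma cell library held 95.8 RPKM, and their part was not tested. Among the fits that left out a replicate letter, the Ccl7 call was kept only without D. It was lost without G, I or J (adjusted p between 0.107 and 0.169), and without E the gene fell below the level filter.

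Against osteoprogenitors of myeloma-bearing mice 3 of 7 members were lower, beside 42.9% of 9316 genes called. These were Cxcl1 (-7.06, SE 0.66, adjusted p = 5e-06), Cxcl14 (-6.53, SE 0.56, adjusted p = 2.33e-06) and Cxcl16 (-3.44, SE 0.65, adjusted p = 0.00125). The other 4 members lay between -2.83 and -1.43 with adjusted p values of 0.158 to 0.32. Of these, Ccl7 was called without replicate G (-3.77, adjusted p = 0.0796, beside 31.3% of all genes). Cxcl1 was called when replicate E was left out and fell below the level filter without D, G, I or J, as did Cxcl16 without G and Cxcl14 without J. With the replicate letter as a block Cxcl10 was also called (-2.93, adjusted p = 0.0114, beside 39.3% of 8991 genes). That fit drops replicate E, the myeloma library at 95.8 RPKM, and leaving out E alone gave the same difference and also a call (adjusted p = 0.0586, beside 39.1% of genes). The bone-lining myeloma library with the highest Cxcl10 (95.8 RPKM) and Ccl7 (73.9 RPKM) also had the highest summed macrophage markers of its group (943.9 RPKM, in a range from 238.2), and their part in those values was not tested.

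By mean level, the order of the 8 groups differed from member to member. Cxcl9 ran from endothelial cells of myeloma-bearing mice (168 RPKM) through stromal progenitors of myeloma-bearing mice (50.7) and healthy endothelial cells (39.2) to central marrow myeloma cells (0.0531), and Cxcl10 began with the same 3 groups. Cxcl1, Ccl2 and Ccl7 were highest in stromal progenitors of myeloma-bearing and then of healthy mice, Cxcl14 was highest in the osteoprogenitor groups, and Cxcl16 and Cx3cl1 were highest in healthy endothelial cells. Neighbours in these orders overlapped in range with few exceptions. The exceptions were Cxcl10 in endothelial cells against stromal progenitors of myeloma-bearing mice, and Cxcl1 in endothelial cells of myeloma-bearing mice against bone-lining myeloma cells.

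Other genes of the table followed the members across all 38 libraries to different degrees, as Pearson's r of log2(RPKM + 1) over 12683 genes. These points share cell types and libraries, so r describes the pattern across cell types as much as within them. Cxcl1 was most like Anxa1 and Atf3 (both r = 0.92), and Cxcl14 was most like Fgfr2 (0.94) and Tnc (0.92). Cxcl9 was most like Sult1a1 and Ifi44 (both 0.82), and Cxcl9 was among the genes most like Cxcl10 (0.75). Ccl2 was most like Ccbp2 (0.78) and Cadm3 (0.72), Ccl7 like Matn2 (0.78) and Glipr2 (0.74), and Ccl19 like Fam110b (0.84) and Lingo1 (0.75). Cxcl16 (Pfkfb3 0.71, Dab2 0.70) and Cx3cl1 (Mta3 and Scamp1, both 0.69) had the lowest values.

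Receptors were represented mainly by the atypical ones, which bind chemokines without signalling through G proteins. Of 23 receptors listed 8 were in the table, and Cxcr2, Cxcr3, Cxcr6, Ccr2, Ccr7 and Cx3cr1 were not analysed here. Darc (Ackr1), which carries inflammatory chemokines across endothelium, was 677 ± 444 RPKM in healthy and 585 ± 298 RPKM in myeloma-bearing endothelial cells (SD, n = 5 each), and was 6.26 higher in healthy endothelial cells than in stromal progenitors (SE 0.99, adjusted p = 0.000562). Ccbp2 (Ackr2), which scavenges inflammatory CC chemokines, was 35.2 ± 17.97 RPKM in healthy and 28.2 ± 12.0 RPKM in myeloma-bearing stromal progenitors and 0.0632 RPKM in healthy endothelial cells, a difference of -4.92 (SE 0.76, adjusted p = 0.000497) for a gene that passed the level filter through stromal progenitors alone. Ccrl1 (Ackr4), which takes up Ccl19, was 20.1 ± 22.9 RPKM in healthy and 29.5 ± 34.7 RPKM in myeloma-bearing osteoprogenitors (SD, n = 4 each). No receptor was called between healthy and myeloma-bearing mice, beside 0%, 0% and 0.0115% of all genes in endothelial cells, stromal progenitors and osteoprogenitors.

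Genes of the interferon and NF-κB pathways likewise gave 0 calls between healthy and myeloma-bearing mice by limma on the libraries compared. Gene lists were counted in that fit alone. It called 0%, 0% and 0.0115% of all genes in endothelial cells, stromal progenitors and osteoprogenitors, so nothing is read from the 0 calls. By gene set enrichment, the study reported interferon response sets as raised in myeloma-bearing mice in each of these cell types. All 17 interferon pathway genes listed were in the table, and the median difference of those tested was 0.45 in endothelial cells, 0.48 in stromal progenitors and 0.72 in osteoprogenitors. Irf7, an amplifier of interferon production, was 22.8 ± 27.6 RPKM in healthy and 134.5 ± 104 RPKM in myeloma-bearing endothelial cells (SD, n = 5 each), a difference of 3.72 (SE 1.16, adjusted p = 0.821). Irf1, which activates Cxcl9 and Cxcl10, was 12.7 ± 3.28 RPKM in healthy and 79.0 ± 44.6 RPKM in myeloma-bearing stromal progenitors (SD, n = 5 each), a difference of 2.24 (SE 0.66, adjusted p = 0.811), and the kinase gene Jak2 differed there by 1.90 (SE 0.84, adjusted p = 0.956). In osteoprogenitors the values lay on both sides of 0, at -2.15 for Irf3 (SE 0.96) and 1.80 for Irf7 (SE 1.21), both with an adjusted p of 0.981. Of the 22 NF-κB pathway genes listed, those tested had medians of 0.28, 0.12 and -0.03 in the same 3 cell types. Tnfaip3, an inhibitor of NF-κB, differed by 2.14 in endothelial cells (SE 0.92, adjusted p = 0.922) and by 1.61 in osteoprogenitors (SE 1.08, adjusted p = 0.981). Other inhibitors differed in sign between cell types. Values were -2.92 for Nfkbib in osteoprogenitors (SE 0.89, adjusted p = 0.981) and -2.06 for Nfkbie in stromal progenitors (SE 0.97, adjusted p = 0.956). With myeloma, mean log2(RPKM + 1) of Nfkbib went from 1.23 to 2.23 in endothelial cells and from 2.58 to 3.29 in stromal progenitors. Nfkbie went from 1.65 to 1.28 in endothelial cells and from 0.02 to 0.73 in osteoprogenitors. Nfkbia went from 8.50 to 8.66 in endothelial cells, 8.91 to 9.37 in stromal progenitors and 8.63 to 8.78 in osteoprogenitors. Tnip1, which acts with Tnfaip3, was at -1.58 in endothelial cells (SE 1.30) and 2.19 in stromal progenitors (SE 1.00), both with an adjusted p of 0.956. Irf7 and Tnfaip3 in endothelial cells, Irf3 and Nfkbib in osteoprogenitors and Tnip1 in stromal progenitors passed the level filter through their higher group alone. In each case 4 or more libraries of that group and fewer than 4 of the other exceeded 1 RPKM, so these differences are a description.

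Among the remaining lists, 12 of 29 other chemokines, 4 of 8 cytokines listed with the inducing pathways and all 3 chemokine-processing proteases were in the table. Again 0 were called between healthy and myeloma-bearing mice, beside the shares of all genes given above. Cxcl12, which retains haematopoietic cells in the marrow, was 124 ± 128 RPKM in healthy and 224.5 ± 158 RPKM in myeloma-bearing stromal progenitors (1.44, SE 0.79, adjusted p = 0.956), and was called lower in bone-lining myeloma cells than in each niche cell type (differences of -7.08 to -7.06), having passed the level filter through the niche libraries. Adam10, which sheds Cxcl16 and Cx3cl1, was 158 ± 94.5 RPKM in healthy endothelial cells and 22.6 ± 11.2 RPKM in healthy stromal progenitors (SD, n = 5 each), and it was called higher in the former by 2.57. In myeloma cells, the NF-κB inhibitor Nfkbia was higher in the bone lining (274 ± 60.5 RPKM) than in the central marrow (68.5 ± 11.9 RPKM) by 1.97 (SE 0.22, adjusted p = 0.000723), the only called gene of the pathway in that comparison.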

How the data were processed

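RNA-Seq of pools of 100 sorted cells was analysed in 38 libraries (SmartSeq2). According to the submitters' processing notes and the methods of the study, the authors aligned reads with STAR (version 2.4.0) to GRCm38 (mm10), counted reads per gene with featureCounts of Subread (version 1.4.5-p1) and normalised with edgeR. The deposited values are RPKM, reads scaled to gene length and library depth, for 13260 genes, and no column of another sample was present. Values were whole multiples of what 1 read is worth for 100% of genes (tolerance 0.001 reads), so reads were recovered and summed to 9735031 to 34883291 per library. Floors of 3 reads cover counting error only, since PCR copies were not marked by molecular identifiers. No pair of replicates held identical values: the closest pair differed in 10546 genes.

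Comparisons used limma (3.58.1, R 4.3.3) on log2(RPKM + 1), on the libraries compared and without a block, keeping genes that exceeded 1 RPKM in 4 or more of them. A pseudocount of 1 understates the change of low genes. Genes with an adjusted p value (Benjamini-Hochberg, all genes tested) below 0.1 and an absolute log2 difference above 1 were called. Alternatives were a pseudocount of 0.1, no level filter, limma on all 38 libraries, voom-limma on the recovered reads, each replicate letter left out, the letter as a block and, chosen after seeing the data, leaving out 2 stromal progenitor libraries rich in neutrophil markers. All 9 members were named, and from each other list at most the 3 called genes of largest absolute difference per comparison or, between healthy and myeloma-bearing mice, the 2 of largest absolute difference where none was called, with receptors of the members. For likeness, the 2 genes of highest r were named. Some genes that this rule names are not reported here. The members and lists were chosen with earlier results of these data known. The fits were tested on simulated data. Annotation was GENCODE for GRCm38, promoters were from RefSeq (GRCm38.p6), and tables and plots used Python 3.11.15, numpy 2.4.6, pandas 2.3.3 and matplotlib 3.10.9.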

Additional observations from a re-analysis of the deposited data

Results flagged for a closer look

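A library stood far from the rest of its group for 15 of the 55 combinations of member and group with a library above 1 RPKM that were examined (the other 17 were at or below 1 RPKM throughout), where chance marks about 1 in 20 groups of normally distributed values. RPKM values are skewed and the rate for such values was not measured, so the 15 are not set against it. All 15 were the highest of their group. In endothelial cells these were Cxcl1 at 1008 RPKM in healthy replicate N (next 252), and Cxcl10 at 1317 RPKM (next 536) and Ccl2 at 701 RPKM (next 96.8) in myeloma-bearing replicate D. In healthy stromal progenitors they were Ccl2 at 1788 RPKM (next 321) and Ccl7 at 1484 RPKM (next 237) in replicate L, which was rich in neutrophil markers, and Cxcl9 at 7.70 RPKM (next 0.181) and Cx3cl1 at 9.004 RPKM (next 1.68) in replicate C. In healthy osteoprogenitors Cxcl9 was 4.25 RPKM in replicate O (next 0.409), Ccl2 was 101 RPKM in replicate N (next 3.71) and Ccl7 was 266.5 RPKM in replicate L (next 0.198). In osteoprogenitors of myeloma-bearing mice Cxcl16 was 52.9 RPKM in replicate D (next 9.39). In bone-lining myeloma cells Cxcl10 was 95.8 RPKM (next 12.5) and Ccl7 was 73.9 RPKM (next 0.196) in replicate E, Cxcl14 was 1.72 RPKM in replicate J (next 0.0966) and Cxcl16 was 1.23 RPKM in replicate G (next 0).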

How the results depend on the processing

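Between healthy and myeloma-bearing mice, 0 members were called in endothelial cells and osteoprogenitors under every alternative run, and in stromal progenitors voom-limma on all 38 libraries called 1 (Ccl19). Voom-limma on the libraries compared moved the median of all genes in endothelial cells from 0.07 to 0.25. No paired analysis was possible between healthy and myeloma-bearing libraries because they share no replicate letter. Elsewhere the deviations of same-lettered libraries had low correlations (r from -0.04 to 0.12, with 1 of 59 letter pairs above 0.1). The labels do not say what a letter marks. That the library with the same letter was the closest of the 4 or 5 in the other group in 27 of the 59 pairs is a hint from the data, not the design. Letters were used as names only. With the replicate block, healthy endothelial cells against osteoprogenitors gave 1 called member (Cxcl14) in place of 2, as it did when replicate C, which the block drops, was left out, and no other count of called members moved by over 1.5 times. That comparison also gave 1 with a pseudocount of 0.1, without the level filter and by either voom fit. Healthy endothelial cells against stromal progenitors, with 2 called, gave 0 without the level filter, 4 with all 38 libraries in the fit (Ccl2 and Cxcl14 as well), 1 by voom-limma on the libraries compared (Cxcl14) and 0 without the neutrophil-rich libraries (chosen after seeing the data). Healthy osteoprogenitors against stromal progenitors, with 0 called, gave 1 without those libraries (Cxcl14). Bone-lining myeloma cells against osteoprogenitors, with 3 called, gave 5 by voom-limma on all 38 libraries (Ccl19 and Cx3cl1 as well). The causes were not tested.

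Leaving out each replicate letter in turn gave 0 to 3 called members for endothelial cells against stromal progenitors (0 without C or M), 0 to 1 for endothelial cells against osteoprogenitors (0 without M), 0 to 1 for osteoprogenitors against stromal progenitors (1 without N) and 1 to 4 for myeloma cells against osteoprogenitors (1 without J). The sign turned for Ccl7 between healthy and myeloma-bearing stromal progenitors (-0.11 to 2.83, negative without O) and for Cxcl16 in endothelial cells against stromal progenitors (-0.12 to 2.54, negative without M). It also turned for the change in endothelial cells minus that in stromal progenitors of Ccl2 (-2.86 to 0.59, positive without E, G, N or O) and Ccl7 (-2.87 to 0.0033, positive without O), and for the change in stromal progenitors minus that in osteoprogenitors of Ccl2 (-0.20 to 3.39, negative without N) and, without the neutrophil-rich libraries, of Cxcl10 (-0.0201). None of these was called.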

Other observations

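Cytokines listed with the inducing pathways were represented by 4 of the 8: Tnf, Il1b, Il6 and Il10. Tnf exceeded 1 RPKM in 1 of 5 endothelial and 1 of 5 stromal progenitor libraries of myeloma-bearing mice, and in 0 of 5 healthy ones of each. In osteoprogenitors it did so in 1 of 4 healthy and 0 of 4 myeloma-bearing libraries. Il1b did so in 2 of 5 stromal progenitor libraries of myeloma-bearing mice and 3 of 5 bone-lining myeloma libraries, and Tnf in 1 of 5 of the latter. Il6, which acts through Stat3, was 27.6 ± 40.3 RPKM in healthy and 68.3 ± 41.6 RPKM in myeloma-bearing stromal progenitors (SD, n = 5 each), a difference of 3.36 (SE 1.23, adjusted p = 0.874, limma), and it was 0.0147 RPKM in bone-lining myeloma cells, where 0 of 5 libraries exceeded 1 RPKM. In stromal progenitors Il6 exceeded 1 RPKM in 2 of 5 healthy and 5 of 5 myeloma-bearing libraries, so it passed the level filter through the latter. Il10, an anti-inflammatory cytokine, was 16.5 ± 17.1 RPKM in bone-lining myeloma cells (SD, n = 5) and was listed at 0 in endothelial cells and osteoprogenitors of myeloma-bearing mice.

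Genes of the interferon pathway are given beside the shares of all genes called between bone-lining myeloma cells and the niche (41.5%, 42.4% and 42.9% for endothelial cells, stromal progenitors and osteoprogenitors), and nothing is read from their counts. Of 16 interferon pathway genes tested, 9 were lower in myeloma cells than in endothelial cells, 6 were lower than in stromal progenitors, and 8 were lower and 1 higher than in osteoprogenitors. Jak1, a kinase of interferon receptors, was 2.399 ± 1.55 RPKM in myeloma cells (SD, n = 5) and 124 ± 59.1 RPKM in endothelial cells of myeloma-bearing mice (SD, n = 5), a difference of -5.20 (adjusted p = 2.01e-05). Ccl25, a thymic and gut chemokine outside the 9 members, was 36.2 ± 24.3 RPKM in myeloma cells and 0.0288 RPKM in those endothelial cells, where 0 of 5 libraries exceeded 1 RPKM.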
